A study of Mus musculus with 18 samples.

Results

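Genes that encode secretory proteins of the mouse epididymis and seminal vesicle, together with the lipocalin gene Lcn2, were followed in white adipose tissue, liver and muscle of mice on a high-salt diet. The 10 genes, of 21899 in the expression table, were taken by name: Lcn8, Lcn9, Lcn5, Gpx5, Adam7, Crisp1, Svs2, Svs4, Svs5 and Lcn2. They were selected on their FPKM in 1 fat library of the high-salt group, HS3W, against the other 5 fat libraries, so their values in fat are given per library as a description, with no test. The mice were wild-type male C57BL/6 animals of 18 weeks. Control mice (CON) ate chow with tap water, and high-salt mice (HSD) ate a salt-enriched diet with saline to drink for 12 weeks. Each tissue has 3 CON and 3 HSD libraries, 18 in all, from epididymal fat (eWAT), liver and quadriceps muscle. Library names end in a letter for the tissue (W, L or M). The part before it was read as a mouse code, which the labels do not state. CON16W, CON16L and CON16M thus bear the same code.

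The epididymis is a long coiled duct in which sperm mature, and its segments, from the initial segment through caput and corpus to cauda, each secrete their own set of proteins. Lipocalins, which carry small hydrophobic molecules, glutathione peroxidases, cysteine-rich secretory proteins, cystatins and defensins are typical products. The seminal vesicle adds the abundant proteins that form most of the copulatory plug of rodents, and the prostate and coagulating gland add others, among them the transglutaminase that cross-links the plug. The epididymal fat pad lies along this duct. Lcn2 is a lipocalin of another kind: it binds the iron of bacterial siderophores, is induced by inflammation, and is made by neutrophils, adipocytes, liver and many epithelia.

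Expression is given as FPKM, fragments scaled by exon length and library total, which allows levels of different genes to be compared. The number of fragments behind each value was recovered from exon length and library total. Library totals ran from 7628071 to 16637489 fragments, and HS3W held 12299223. The library HS3W stood apart over the whole list of genes. In HS3W, 343 genes, or 1.57% of the 21899 listed, exceeded 100 times their FPKM in each of the other 17 libraries. These 343 genes include 8 of those chosen for their level in HS3W, so the count is not independent of that choice. Together the 343 genes took 1065114 fragments, 8.66% of the library. Many of them were at 0 elsewhere, and with each 0 read as 3 fragments, the limit that a count of 0 allows, 103 of them passed, with 8.56% of the library. In liver, CON16L held skeletal muscle transcripts (Acta1 at 1994 FPKM, against 0.50 to 1.37 in the other 5 liver libraries). Adipocyte genes were present in each fat library, with Adipoq between 692 and 2129 FPKM, Alb was at 5154 FPKM or more in each liver library, and Acta1 at 17694 FPKM or more in each muscle library.

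Stretches of 250 bases before the start site were read from the RefSeq promoters (build GRCm38.p6). They are shown for the 4 epididymal genes whose stretch holds no annotated exon, since these genes were high in the same library. The strand is that of the gene and the direction is 5′ to 3′. Capitals mark a match to TATAAA, the TATA box, to CCAAT, a common promoter element, or to AGAACA, a core of androgen receptor sites.

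Lcn8 (chr2:25652868-25653117, plus strand): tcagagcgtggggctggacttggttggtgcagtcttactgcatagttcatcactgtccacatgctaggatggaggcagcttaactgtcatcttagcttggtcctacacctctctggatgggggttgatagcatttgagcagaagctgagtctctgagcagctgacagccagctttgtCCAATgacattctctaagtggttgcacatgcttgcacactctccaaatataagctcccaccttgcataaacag
Lcn9 (chr2:25822903-25823152, plus strand): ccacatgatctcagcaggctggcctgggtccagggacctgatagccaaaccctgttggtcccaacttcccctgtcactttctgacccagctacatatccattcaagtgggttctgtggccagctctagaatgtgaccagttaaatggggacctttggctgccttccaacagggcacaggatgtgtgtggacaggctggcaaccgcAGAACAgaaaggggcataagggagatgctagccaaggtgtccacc
Lcn5 (chr2:25657702-25657951, plus strand): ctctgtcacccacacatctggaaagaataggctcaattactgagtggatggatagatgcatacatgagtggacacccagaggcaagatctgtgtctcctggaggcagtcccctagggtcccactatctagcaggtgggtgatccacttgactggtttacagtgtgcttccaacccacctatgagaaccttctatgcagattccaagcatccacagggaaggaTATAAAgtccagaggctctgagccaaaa
Crisp1 (chr17:40319208-40319457, minus strand): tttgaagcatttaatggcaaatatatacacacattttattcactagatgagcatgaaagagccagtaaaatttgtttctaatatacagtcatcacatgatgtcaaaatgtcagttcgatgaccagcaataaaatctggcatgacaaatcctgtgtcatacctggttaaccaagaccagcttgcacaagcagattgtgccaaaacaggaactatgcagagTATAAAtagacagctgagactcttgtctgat

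Of the 10 genes, 9 had a RefSeq promoter, and the search covered both strands of the 250 bases. TATAAA was found in 5 of the 9 (Crisp1, Lcn5, Svs2, Svs4 and Svs5), and in 12.4% of all 32851 promoter stretches of that length. On the strand of the gene and 20 to 35 bases before the start, it was found in 4 of the 9 (Crisp1, Lcn5, Svs4 and Svs5) and in 1.75% of all stretches. CCAAT was in 4 of the 9 (Gpx5, Lcn8, Svs2 and Svs4), against 33.8% of all stretches, and AGAACA in 2 of the 9 (Lcn9 and Svs5), against 16.1%. The full palindromic androgen response element was in none of the 9 and in 3 of the 32851 stretches. A match to the NF-kB consensus was in none of the 9 and in 7.25% of all stretches. With 9 stretches, none cannot be told from that share. The Lcn2 stretch (chr2:32387740-32387989) lies inside the annotated gene, which ends at 32388252. Bases before that end were not searched, so the result does not tell whether Lcn2 has such a site. Of the 250 bases, 197 of the Lcn2 stretch, 152 of Svs4, 125 of Svs2, 45 of Gpx5 and 25 of Svs5 lie in an annotated exon of the gene. Among the 36 pairs of these promoters, the longest run of shared bases was 12: GTTGATAAAGAT in Svs2 and Svs4, which occurs in 2 of all stretches, and GAAATATATAAA in Svs4 and Svs5, which occurs in 4. The latter ends in TATAAA. These are matches of letters and no measure of binding.

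The 10 genes together took 612634 fragments of HS3W, or 4.98% of the library (Wilson interval at 95% confidence, 4.97 to 4.99%). In the other 5 fat libraries they took between 248 and 1729 fragments, of which Lcn2 alone held 225 to 1041. Liver libraries held 17 to 64 fragments of the 10 genes, and muscle libraries 13 to 74. The muscle library of the same mouse code, HS3M, held 33, within the range of the other muscle libraries. Within HS3W, the 6 epididymal genes made up 2.86% of all fragments, the 3 seminal vesicle genes 1.97% and Lcn2 0.151%. Intervals cover counting error only, as reads carried no molecular identifiers.

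**Figure D1:**
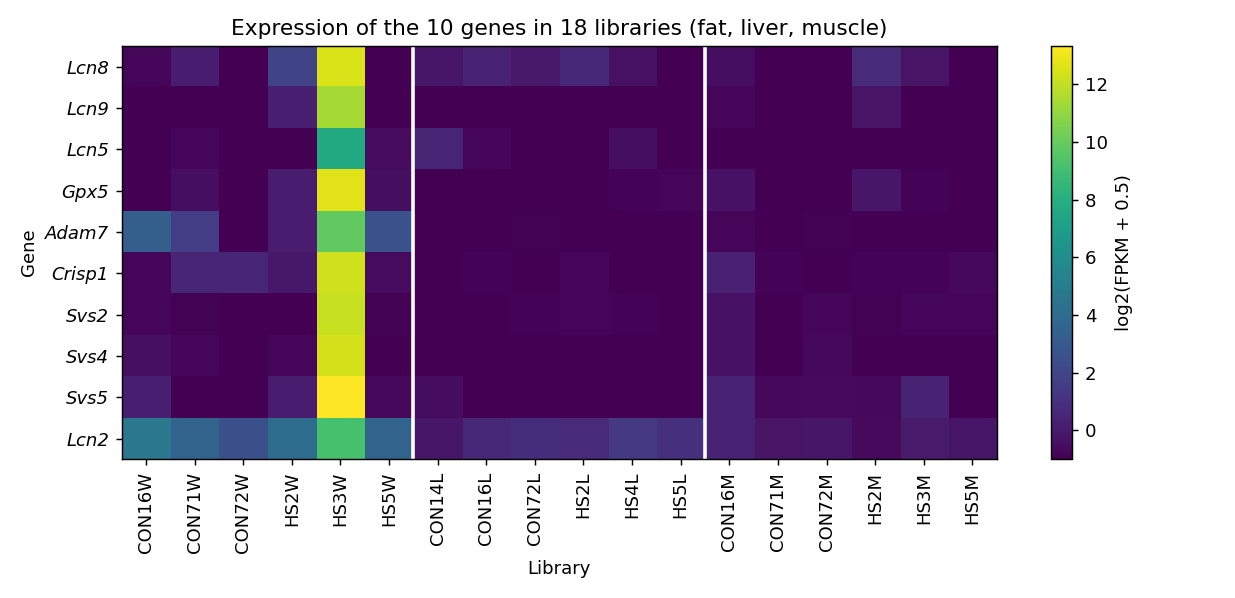
Expression of the 10 genes (rows) in the 18 libraries (columns; white lines part fat, liver and muscle), coloured by log2(FPKM + 0.5). All 10 genes peak in HS3W, from 205 FPKM for Lcn5 to 10319 FPKM for Svs5, and the row of Lcn2 is the only one with a visible level in each of the 6 fat libraries.

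The genes of the initial segment and caput covered the widest range. Lcn8 (ENSMUSG00000036449, chr2:25653120-25656217 on mm10), a lipocalin of the initial segment, was at 5972 FPKM in HS3W. Its FPKM was 0.10 in CON16W, 0.61 in CON71W, 0 in CON72W, 3.38 in HS2W and 0 in HS5W. HS3W was thus 1769 times the next fat library, HS2W, where 30 fragments were counted.

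Lcn9 (ENSMUSG00000023210, chr2:25823153-25825537), also a lipocalin of the proximal epididymis, was at 2688 FPKM in HS3W and 0.70 FPKM in HS2W, from 27739 and 8 fragments. It was listed at 0 in CON16W, CON71W, CON72W and HS5W. Lcn9 was the gene with the most zeros in fat, 4 of the other 5 libraries.

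Lcn5 (ENSMUSG00000026937, chr2:25657952-25661977), the retinoic acid-binding lipocalin of the epididymis, had the lowest level of the 10 genes in HS3W, 205 FPKM. The other fat libraries had 0, 0.07, 0, 0 and 0.17 FPKM in CON16W, CON71W, CON72W, HS2W and HS5W, that is, at most 2 fragments. Its highest value outside fat was 0.89 FPKM in the liver library CON14L, from 6 fragments.

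Gpx5 (ENSMUSG00000004344, chr13:21286429-21292731), a glutathione peroxidase without selenium that protects sperm in the caput, reached 6610 FPKM in HS3W. This was the largest number of fragments of the 10 genes, 136095. The other fat libraries had 0, 0.24, 0, 0.61 and 0.23 FPKM in CON16W, CON71W, CON72W, HS2W and HS5W. In CON16W, 0 fragments of 16034781 allow a level of up to 0.112 FPKM.

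Adam7 (ENSMUSG00000022056, chr14:68497336-68533741), a disintegrin and metalloprotease family protein of the caput that is passed to sperm, was also counted in the remaining fat libraries. It was at 926 FPKM in HS3W, and at 9.68 FPKM in CON16W, 2.58 in CON71W, 0 in CON72W, 0.56 in HS2W and 5.58 in HS5W. These rest on 49340, 672, 169, 0, 33 and 316 fragments. Adam7 was thus seen well above 1 fragment in 4 of the other 5 fat libraries, of both diets, and HS3W was 95.7 times the next library. In liver and muscle it was at most 0.070 FPKM, or 4 fragments.

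Crisp1 (ENSMUSG00000025431, chr17:40293758-40319207), a cysteine-rich secretory protein that coats sperm in the epididymis, was at 5109 FPKM in HS3W. The other fat libraries had 0.088, 0.98, 0.98, 0.47 and 0.16 FPKM in CON16W, CON71W, CON72W, HS2W and HS5W. It was above 0 in each of the 6 fat libraries, though on only 2 to 23 fragments outside HS3W. CON72W, where the other 8 secretory genes were all at 0, held 23 fragments of Crisp1.

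The seminal vesicle genes were the most one-sided. Svs2 (ENSMUSG00000040132, chr2:164235929-164238466), semenogelin-like protein of the plug, was at 4513 FPKM in HS3W, from 110175 fragments. It had 0.094, 0.033, 0, 0 and 0.039 FPKM in CON16W, CON71W, CON72W, HS2W and HS5W, at most 3 fragments.

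Svs4 (ENSMUSG00000016998, chr2:164275952-164278459), a small androgen-dependent secretory protein, was at 5525 FPKM in HS3W. Its FPKM was 0.26, 0.090, 0, 0.10 and 0 in CON16W, CON71W, CON72W, HS2W and HS5W.

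Svs5 (ENSMUSG00000017004, chr2:164332740-164334396), another seminal vesicle secretory protein, had the highest FPKM of the 10 genes, 10319 in HS3W. Only 1 gene of the table was higher in that library. The other fat libraries had 0.68, 0, 0, 0.57 and 0.12 FPKM in CON16W, CON71W, CON72W, HS2W and HS5W, from at most 7 fragments.

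HS3W was above each of the other 5 fat libraries for all 10 genes, against 32.5% of the 21899 listed genes, and 8 of the 10 were among the 343 genes over 100 times higher there than in all 17 other libraries, against 1.57% of listed genes. The exceptions were Adam7 and Lcn2. These counts follow from how the genes were chosen.

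**Figure D2:**
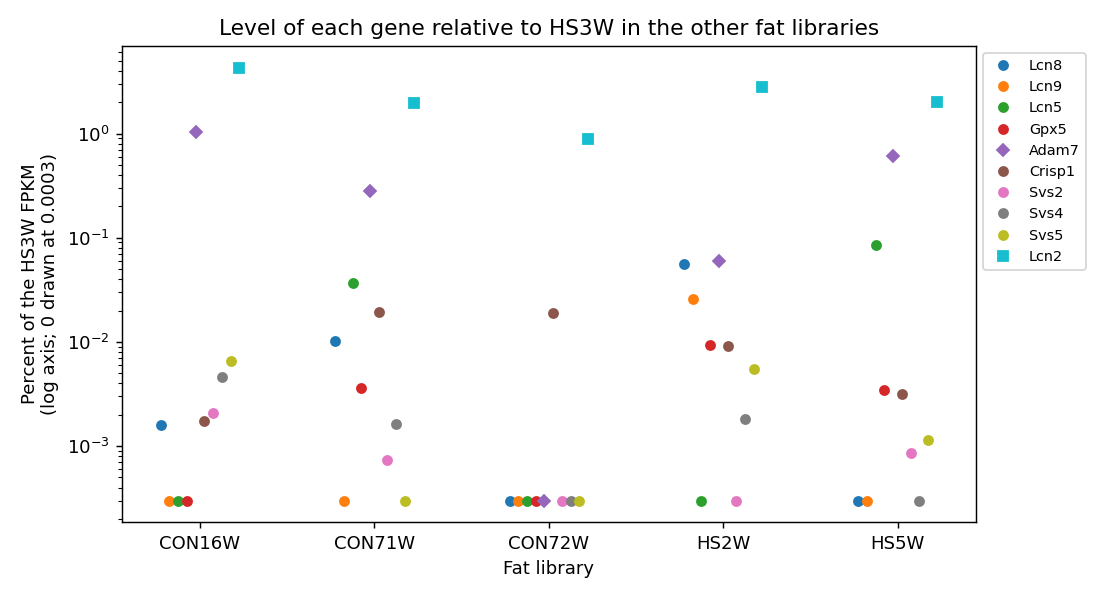
FPKM of each gene in the other 5 fat libraries as a percent of its FPKM in HS3W (log axis; 0 drawn at 0.0003). Lcn2 (squares) lies between 0.894% and 4.29%, Adam7 (diamonds) reaches 1.04% in CON16W, and the other 8 genes stay below 0.1% in each library.

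The traces in the other fat libraries were not a fixed fraction of the mixture in HS3W. In CON16W, Adam7 was at 1.04% of its HS3W level while Gpx5, Lcn9 and Lcn5 were at 0. HS5W had Adam7 at 0.602% and Lcn8 and Lcn9 at 0, and in HS2W Lcn8 (0.0565%) and Adam7 (0.0603%) were nearly equal. HS2W was the only other fat library with Lcn9, and the cystatin Cst8 was at 7.90 FPKM there against at most 0.45 in CON16W, CON71W, CON72W and HS5W.

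With all 6 fat libraries, the log2 fold change of HSD over CON on the log2(FPKM + 0.5) scale ran from 2.02 (SE 1.56) for Lcn2 to 5.03 (SE 3.39) for Lcn8, with a median of 4.29 over the 10 genes and 0.08 over 13740 genes. limma called 0 of these 13740 genes, or 0%, at an adjusted p under 0.05 and a fold change of at least 1 on the log2 scale. At an unadjusted p under 0.05 there were 2298, and voom on the recovered fragments also called 0. Without HS3W, 4 of the 10 genes passed the filter on low values. Their log2 fold changes were then 0.24 (SE 0.59) for Lcn2, 0.02 (SE 1.34) for Adam7, 1.01 (SE 0.89) for Lcn8 and −0.44 (SE 0.51) for Crisp1. The high HSD means of these genes rested on that single library, which follows from how the genes were chosen. The fit without HS3W called 160 of 13245 genes, 29 higher and 131 lower in HSD. HSD means such as 1703 FPKM for Crisp1 describe none of the 3 libraries.

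Marker lists of the glands show which tissues' transcripts were in HS3W. All 24 genes of the initial segment and caput were above each other fat library by more than 10 times. Among the 13740 genes with a mean of at least 0.5 FPKM in fat, 442 were. The 24 include 5 of the 10 chosen genes. They ran from 8.72 FPKM for the defensin Defb15 to 6610 FPKM for Gpx5. After the members, the highest were the protease inhibitor Spink8 at 1445 FPKM, the cystatin Cst11 at 1155 FPKM and Rnase10, a ribonuclease-like protein of the initial segment, at 1129 FPKM. Ros1, the receptor kinase on which the initial segment depends, was at 19.3 FPKM, against at most 0.028 in the other fat libraries. The median log2 difference between HS3W and the median of the other fat libraries was 8.83 for this list and 0.09 for the 13740 genes with a mean of at least 0.5 FPKM in fat.

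Of 10 genes of the corpus and cauda, all were above each other fat library, 8 of them by more than 10 times with 0 read as 3 fragments. Among the 13740 genes compared, 5370 were above, 442 of them by more than 10 times with 0 kept as 0. The list includes 1 chosen gene, Crisp1. Crisp1 was the highest, followed by Spag11b, a defensin-like protein, at 614 FPKM and the protease inhibitor Wfdc10 at 568 FPKM. Crisp4 was at 45.0 FPKM in HS3W and at 0 in the other 5. The lowest were Spint4 at 1.19 and Spint5 at 0.36 FPKM. The list had a median log2 difference of 6.61.

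All 11 seminal vesicle genes were over 100 times higher in HS3W than in each of the other 17 libraries. Among the 21899 listed genes, 343 were (1.57%). The 11 include 3 chosen genes, and their median log2 difference was 10.65. After Svs5, Svs4 and Svs2 came Svs6 at 1568, Svs1 at 915 and Ceacam10 at 802 FPKM. The other 5 ran from Sva at 676 FPKM to Pate4 at 132 FPKM. Summed FPKM of the list was 26036 in HS3W and 0.040 to 1.48 in the other fat libraries.

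Both vas deferens genes were higher in HS3W than in each other fat library, as were 5370 of the 13740 genes compared. Akr1b7, the aldo-keto reductase known as the vas deferens protein, was at 3669 FPKM, against 0.44, 0, 1.27, 0.17 and 0.30 in CON16W, CON71W, CON72W, HS2W and HS5W. Pate14 was at 2.60 FPKM and at 0 in the other 5. Akr1b7 is also expressed in other steroid-responsive tissues.

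The prostate and coagulating gland list was nearly absent from fat, HS3W included. Pbsn, Msmb, Sbp, Sbpl and Defb50 were listed at 0 in HS3W, and in the other 5 fat libraries as well. Msmb, Sbp, Sbpl and Defb50 were at 0 in all 18 libraries, so they do not set HS3W apart. Tgm4, the plug transglutaminase, was highest in HS3W, at 0.50 FPKM from 28 fragments, against 0.13 to 0.29 FPKM in the other fat libraries.

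**Figure D3:**
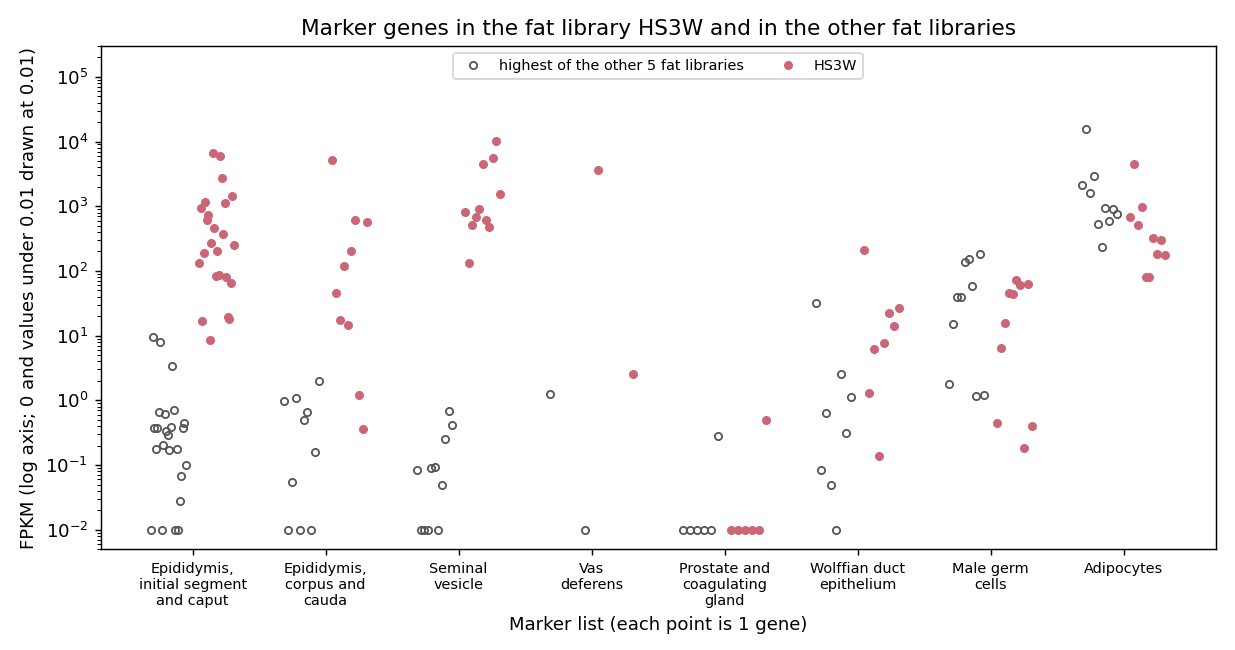
FPKM (log axis; 0 and values under 0.01 drawn at 0.01) of the genes in 8 marker lists, with each gene in HS3W (filled) and in whichever of the other 5 fat libraries was highest (open). The epididymis and seminal vesicle lists are shifted upwards in HS3W with no overlap for the seminal vesicle, prostate genes stay under 1 FPKM in all fat libraries, germ cell genes overlap, and the 10 adipocyte genes are lower in HS3W.

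Genes of the duct epithelium itself were also higher in HS3W: 8 of 8 were above each other fat library, against 5370 of the 13740 genes compared. The adhesion receptor Adgrg2 was at 31.9, 22.4, 9.99, 32.0, 207 and 24.6 FPKM in CON16W, CON71W, CON72W, HS2W, HS3W and HS5W. The transcription factor Pax8 was at 1.11, 0.77, 0.18, 0.88, 26.7 and 0.82 FPKM in the same order. Foxi1, the transcription factor of the proton-secreting cells of the duct, was at 7.73 FPKM in HS3W and at 0 in the other 5. Adgrg2 was at 9.99 FPKM or more in each of the other fat libraries, and CON72W was lowest for Adgrg2, Pax8, Adam7 and Lcn2 alike. These genes were picked after their values were seen, and not all gland genes followed. Of the other 5 fat libraries, CON72W was highest for Akr1b7, at 1.27 FPKM, and held the most fragments of Crisp1, 23.

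Germ cell genes followed another pattern. Of 10, only Odf1 and Smcp, both of the sperm tail, were highest in HS3W, at 45.7 and 59.9 FPKM against 39.2 and 58.1 in HS2W. Among the 13740 genes compared, 5370 were highest in HS3W. The median log2 difference between HS3W and the median of the other fat libraries was 2.52 for the germ cell list. The protamine gene Prm2 was at 155 FPKM in HS2W and 72.2 in HS3W, and Tnp2, which encodes a transition protein of sperm chromatin, at 181 and 63.4. The summed FPKM was 631 in HS2W, 309 in HS3W, 39.7 in HS5W and 0.37 to 55.2 in the 3 CON libraries. Of 7 genes of testis somatic cells, 2 were highest in HS3W, against the same 5370 of 13740 genes. These were Cyp17a1 (7.78 FPKM, against at most 0.53) and Star (2.08 against at most 2.07), while Insl3 was lowest there at 3.78 FPKM.

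Adipocyte genes were lower in HS3W than in each other fat library, 10 of 10, against 4105 of the 13740 genes compared. Adipoq was at 692 FPKM, against 1937 to 2129, Cfd at 4515 against 9353 to 15478, and Lep at 80.1 against 213 to 525. The median log2 difference was −1.51. In a bulk sample, fewer cells of a type and less RNA per cell cannot be told apart, and FPKM are shares of 1 total. The 343 genes over 100 times higher in HS3W, gland genes or not, took 8.66% of its fragments. The part of gland transcripts in these lower values was not tested.

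Of the 20 genes with the highest FPKM among the 343, 7 were in the epididymis lists, 7 in the seminal vesicle list, 1 in the vas deferens list (Akr1b7), 0 in the prostate list and 5 in none. The 5 were Cstdc2, a cystatin-related gene, the defensins Defb48 and Defb20, Gm4846 and Ly6g5b, between 795 and 1786 FPKM. Among the 20 were 7 of the 10 genes. Lcn5, at 205 FPKM, was below them.

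On chromosome 2 lie 7 of the 10 genes, as do 50 of the 343 genes (14.6%), 27 of the 103 that passed with 0 read as 3 fragments (26.2%) and 8.37% of all listed genes. Lcn8 and Lcn5 start 4.832 kb apart, and Lcn8 to Lcn9 spans 172.417 kb. Of 16 listed genes from 60 kb before to 60 kb after this span, 5 were over 100 times higher in HS3W than in all others, also with 0 read as 3 fragments: Lcn8, Lcn5, Lcn6, Lcn10 and Lcn9. Lcn6 was at 87.7 and Lcn10 at 461 FPKM. Lcn3 was at 0.83 FPKM in HS3W and at 0 in the other fat libraries. Between Lcn8 and Lcn9 stood also Lcn11 and Gm13539, both at 0 in HS3W, and before Lcn8 stood Tmem141, at 17.2 FPKM against at most 9.67. Svs2 to Svs5 spans 98.467 kb. There, 7 of 11 listed genes passed the same ratio, which were the 6 Svs genes and Wfdc15b at 221 FPKM. At the edge, Slpi was at 5.51 FPKM in HS3W and up to 15.0 in the other fat libraries, and Wfdc5 and Wfdc12 were at 0 in HS3W.

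**Figure D4:**
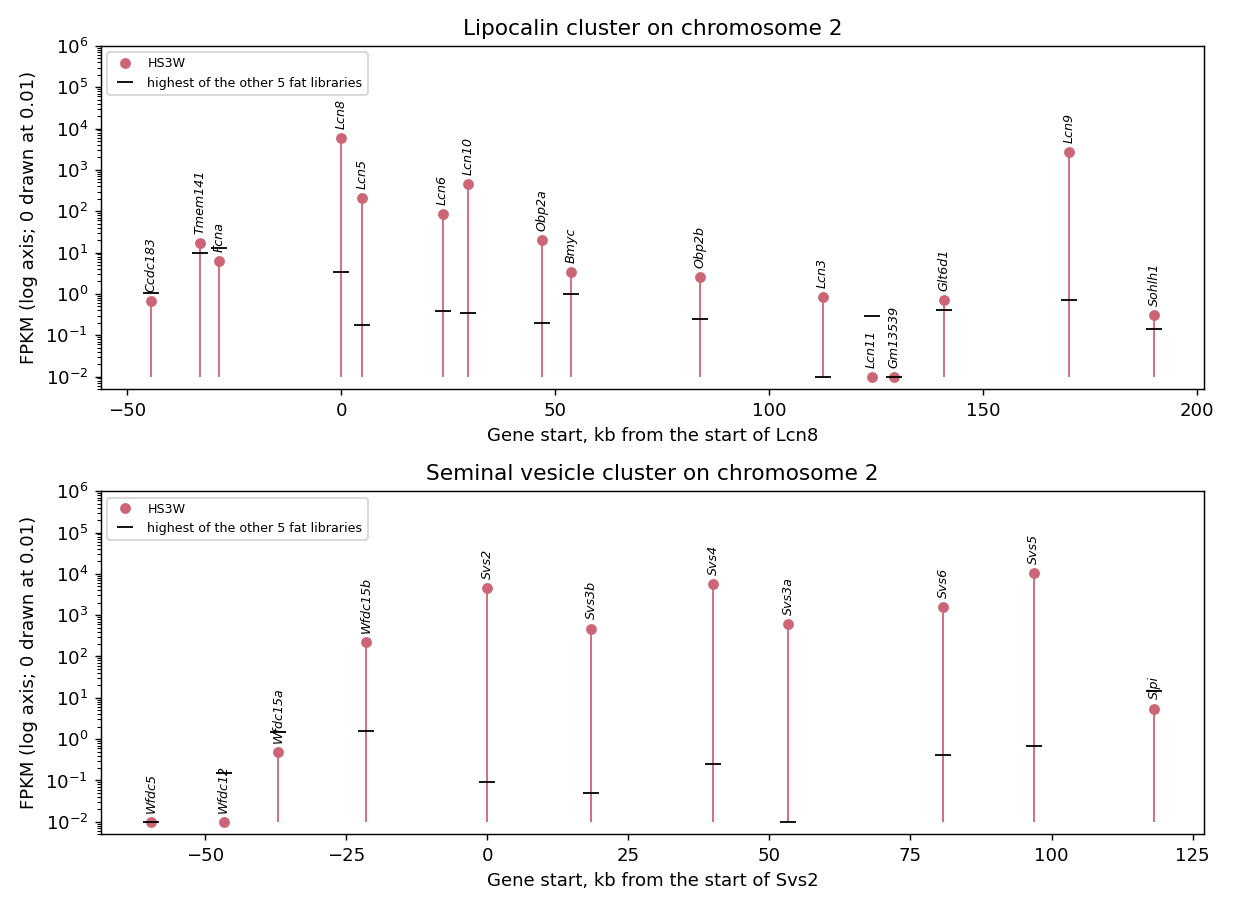
FPKM (log axis; 0 drawn at 0.01) of listed genes around the lipocalin genes (upper panel) and the Svs genes (lower panel) of chromosome 2, by distance of the gene start from that of Lcn8 or Svs2 in kb. Points are HS3W and dashes whichever of the other 5 fat libraries was highest; Lcn8 (5972 FPKM) stands at 0 kb, and Fcna (6.27 FPKM, against at most 12.8 in the other fat libraries) at −28.454 kb.

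Gpx5 has a neighbour of the same family, Gpx6, which was at 10.3 FPKM in HS3W, 0.48 in HS2W and 0 in the other 4 fat libraries. Of 7 glutathione peroxidases listed besides Gpx5, 3 were above each other fat library in HS3W and 3 below them all. Among 13740 genes compared, 5370 were above and 4105 below. Only 1 of the 7, Gpx6, was above by more than 10 times. Gpx3, the secreted plasma form, was at 951 FPKM in HS3W within the 705 to 1113 of the other fat libraries. Gpx1 was lower, 252 against 442 to 609.

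Lcn2 (ENSMUSG00000026822, chr2:32384633-32388252) was at 24.8 FPKM in CON16W, 11.4 in CON71W, 5.16 in CON72W, 16.0 in HS2W, 577 in HS3W and 11.5 in HS5W. The fragments behind these values were 1041, 453, 225, 573, 18604 and 395. HS2W and HS5W lay inside the CON range, and HS3W was 23.3 times CON16W, the next library. The gland transcripts stood in the same library, and their part in its Lcn2 level was not tested. In liver, Lcn2 was at 0.40, 1.05 and 1.33 FPKM in CON14L, CON16L and CON72L, and at 1.17, 2.13 and 1.38 in HS2L, HS4L and HS5L. In muscle it was at 0.81, 0.35 and 0.41 FPKM in CON16M, CON71M and CON72M, and at 0.14, 0.53 and 0.37 in HS2M, HS3M and HS5M.

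**Figure D5:**
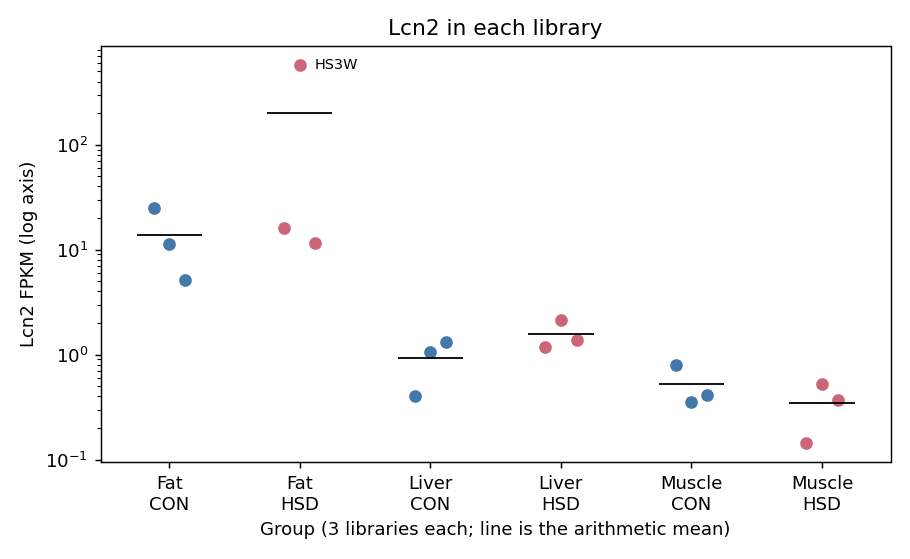
Lcn2 FPKM (log axis) in each library of the 6 groups, with the arithmetic mean of 3 libraries as a line. All 6 fat libraries lie above all liver and muscle libraries, and the fat HSD mean of 201 FPKM lies far from each of its 3 points.

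By group means, the order of Lcn2 was fat HSD (201 ± 325 FPKM, SD, n = 3), fat CON (13.8 ± 10.01), liver HSD (1.56 ± 0.50), liver CON (0.93 ± 0.48), muscle CON (0.52 ± 0.25) and muscle HSD (0.35 ± 0.19). Values of neighbours overlapped for fat HSD and fat CON, for liver HSD and liver CON, for liver CON and muscle CON, and for muscle CON and muscle HSD. Fat CON and liver HSD did not overlap.

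Levels between tissues were described in CON mice. The CON fat libraries were among those the 10 genes were selected against, so the differences of these genes are given with no test. In eWAT against liver, the log2 difference of Lcn2 was 3.13 (SE 0.55), and the 3 fat libraries all lay above the 3 liver libraries. Over all 12719 genes, limma called 69.7%, 62.4% as higher and 7.31% as lower in fat, with a median of 1.38. With median-ratio scaling the calls were split into 2678 higher and 2454 lower in place of 7939 and 930, with a median of 0.03, and the difference of Lcn2 was 1.84. Without mitochondrially encoded genes, 4079 were higher and 1560 lower. In eWAT against muscle, the log2 difference of Lcn2 was 3.57 (SE 0.47), again with all fat libraries above all muscle libraries. There, 56.8% of 12607 genes were called, 48.3% as higher and 8.5% as lower in fat, and the median was 0.96. Median-ratio scaling gave 2.75 for Lcn2 and 2533 genes higher and 2641 lower, in place of 6095 and 1072.

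Adam7 was the only other member that passed the filter on low values in CON tissue, and it did so through fat alone. Its log2 difference was 2.30 (SE 0.99) against liver and 2.24 (SE 0.91) against muscle. Without CON16W, the CON fat library with the highest level, the difference from muscle was 1.23. The other 8 genes did not reach a mean of 0.5 FPKM.

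Other genes of Lcn2 biology were not uniformly higher in fat. Of 13 listed genes of Lcn2 uptake and of other lipocalins, 8 passed the filter against liver, 3 higher and 3 lower in fat, with a median log2 fold change of −0.56 against 1.38 over all genes. Slc22a17, the Lcn2 receptor, was higher in fat by 2.99 (SE 0.25, adjusted p = 5.17e-05, limma) against liver and by 2.78 (SE 0.10, adjusted p = 6.99e-08, limma) against muscle. Of 14 acute phase and NF-kB target genes, 11 passed the filter against liver, with 2 higher, 3 lower and a median log2 fold change of −0.40, where 62.4% of all genes were higher and 7.31% lower with a median of 1.38. The acute phase gene Saa1 was lower in fat by 1.99 on the log2 scale. It was at most 0.18 FPKM in CON fat and passed the filter through liver alone, so no test is given. Against muscle, 7 of 8 tested were higher, with a median of 2.06, where 48.3% of all genes were higher with a median of 0.96. Of the duct epithelium list, Adgrg2 was higher in CON fat than in liver by 4.77 (SE 0.39) and than in muscle by 4.82 (SE 0.36). It was at most 0.26 FPKM in CON liver and 0.32 FPKM in CON muscle. Adgrg2 thus passed the filter through fat alone, and its differences are given with no test.

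Inflammatory genes that often accompany Lcn2 did not share its high level in HS3W. None of the 14 was above each other fat library, and 7 were below them all, against 5370 and 4105 of the 13740 genes compared. The median log2 difference was −0.70 for these 14 and −1.51 for the adipocyte genes. The cause of either was not tested. Hp, haptoglobin, was at 362 FPKM against 790 to 1870, and Orm1 at 22.6 against 43.6 to 195. Saa3 was at 0.06 FPKM against 0.30 to 1.29. Macrophage genes were low as well, 6 of 7 below the other fat libraries, with Lyz2 at 111 FPKM against 181 to 446. Of 10 neutrophil genes, the defining Mpo, Ly6g, Ngp and Camp were at 0 in HS3W, but the first 3 of these were also at 0 in 4 of the other 5 fat libraries each. S100a9 was at 0.16 FPKM against 1.04 to 3.82, while S100a8, at 1.76, lay within the 0.22 to 2.52 of the others. Only Ltf of the 10 was above each other fat library, at 41.7 FPKM against at most 0.13. Ltf encodes lactoferrin, a protein of neutrophil granules that epithelia of the reproductive tract secrete too. The summed FPKM of the list was 45.2 in HS3W, of which Ltf made up most, and 3.93 to 9.44 in the other fat libraries. The 8 of 13 genes of the uptake and lipocalin list that were highest in HS3W included Ptgds, lipocalin-type prostaglandin D synthase, at 167 FPKM against 1.28 to 10.5, Lrp2 at 6.42 against 0.30 to 2.21, Apod at 54.9 against 12.0 to 31.9, and Slc22a17 at 12.7 against 6.84 to 8.76.

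The genes whose pattern was most like that of Lcn2 were found by Pearson's r of log2(FPKM + 0.5), centred on each tissue, among 13067 genes. Over all 18 libraries they were Cdh1, the epithelial cadherin (r = 0.977), Cutal (0.972), Arg2, the mitochondrial arginase (0.971), Ap1m2, an adaptor subunit of epithelial sorting (0.969), and Tjp3, a tight junction protein (0.968). Cdh1 was at 2.28, 1.05, 0.17, 1.63, 44.7 and 1.05 FPKM in CON16W, CON71W, CON72W, HS2W, HS3W and HS5W. The secretory members had lower values, from 0.886 for Lcn5 to 0.941 for Svs5. Since HS3W weighs heavily in these values, r was taken again over the 17 other libraries. There the 5 were Anks4b (0.895), Rnf128 (0.873), Wwc1 (0.854), Gstm7 (0.846) and Cdhr5 (0.839), and Cdh1 was next with 0.835. Pax8 had 0.722 (rank 66) and Adgrg2 0.528. Of the secretory members, Svs4 (0.603) and Adam7 (0.563) were highest, while Gpx5 (0.152), Lcn9 (0.072), Lcn8 (0.071), Crisp1 (−0.248) and Lcn5 (−0.372) were low, all on few fragments. Hp had −0.320 with HS3W and 0.416 without it, and Adipoq −0.439 and 0.062. The points share libraries and their depths, so these values are descriptions.

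The effect of diet was tested in liver and muscle, which did not enter the choice of genes. In liver, limma called 0 of 10317 genes (0%), with 592 at an unadjusted p under 0.05, and voom on recovered fragments called 0 too. Lcn2 had a log2 fold change of 0.56 (SE 0.33, adjusted p = 0.764, limma). The exact permutation test of 3 against 3 gave p = 0.2, 2-sided, where 0.1 is the smallest possible, and the groups overlapped. Lcn8 was the only other member tested, at −0.31 (SE 0.43, adjusted p = 0.833, limma) on levels of 0.30 to 1.03 FPKM apart from a 0 in HS5L. None of the 11 acute phase genes tested was called, with a median of 0.52 against 0.13 over all genes. With mitochondrially encoded genes left out, the median of all genes moved to −0.37, and Lcn2 was at 0.27. In muscle, 35 of 10834 genes were called (0.323%), 11 higher (0.102%) and 24 lower (0.222%), or 54 with the replicate number as a block. The split was 13 and 14 with median-ratio scaling and 11 and 47 with mitochondrially encoded genes left out. None of the 10 genes reached the mean of 0.5 FPKM needed for a test there. For Lcn2 in muscle, the exact permutation test gave p = 0.5, 2-sided. The diet effect on Lcn2 differed between liver and muscle by 0.84 (SE 0.41, adjusted p = 0.674, limma interaction), with 0.0264% of 11381 genes called, 0.0176% as higher and 0.00879% as lower in liver.

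In liver and muscle, none of the 9 secretory genes had more than 14 fragments in a library. Lcn9 and Svs4 were at 0 in 10 of these 12 libraries each, Lcn5 in 9, Gpx5 in 7, and Svs5 and Adam7 in 6. The highest value of any of them was 1.15 FPKM, for Lcn8 in HS2M, from 10 fragments. CON16M held the most, with 46 fragments of the 9 genes, among them 14 of Crisp1 and 8 of Svs2. The remaining muscle libraries held 2 to 27, and the liver libraries 1 to 10.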

How the data were processed

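RNA of eWAT, liver and quadriceps muscle was extracted with TRIzol, depleted of rRNA and made into stranded paired-end libraries, 3 per diet and tissue. After adaptor trimming by cutadapt, the authors mapped the reads to mm10 (hisat2) and deposited FPKM per gene, computed by cuffdiff from an Ensembl annotation whose release is not given in the sources used here. The submitters' processing notes also name mm9 and HTSeq 0.9.1, without a role. Reads that match near-identical copies, such as Svs3a and Svs3b, may be split between them.

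FPKM were used as deposited. Whole fragments (tolerance 0.02) were recovered for 18343 of 18789 genes above 0 (97.6%) with exon lengths of GENCODE M21, and for all 10 genes reported. Library totals of 7628071 to 16637489 fragments set the precision, and 0 fragments were read as a limit of 3. CON and HSD, or tissues of CON mice, were compared by limma 3.58.1 in R 4.3.3 (lmFit, eBayes with trend) on log2(FPKM + 0.5), which understates changes of low genes, for genes with a mean of at least 0.5 FPKM. P-values were adjusted over all genes tested (Benjamini-Hochberg), are 2-sided and measure the spread between 3 libraries. Genes were called where the adjusted p was under 0.05 and the fold change, in either direction, 1 or more on the log2 scale. The authors' test, DESeq2, takes counts and could not be run on FPKM. In data simulated for each comparison, 200 genes were changed by 4-fold. Of them, limma called 99.5% for liver diet (10060 genes) and 100% for muscle diet (10599). For CON eWAT it called 100% against liver (12234) and 99.5% against muscle (12196). Unchanged genes called were 0 to 2 per comparison. The simulated libraries had a fixed spread that was set beforehand and not taken from these data. These shares therefore do not give the power at the real spread between libraries.

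The genes and the 16 marker lists were chosen with earlier results of these data known. A further gene of the prostate list was left out of all counts and is not reported here. Named were the 10 genes, the 3 highest of a list or its defining genes, the 20 highest of the genes over 100 times higher in HS3W, and the 5 most like Lcn2. Genes named beyond this rule, such as Ros1, Foxi1, Cst8, Ltf and the neighbours on chromosome 2, were picked after their values were seen. Same-numbered CON and HSD libraries of muscle deviated from their group means together (r = 0.383, 0.177 and 0.184 across 10834 genes), and CON eWAT and muscle share mouse codes, so fits with the replicate number as a block were run. No 2 libraries held equal values. Descriptions and plots were made in Python 3.11.15 (pandas 2.3.3, numpy 2.4.6, matplotlib 3.10.9, scipy 1.17.1).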

Additional observations from a re-analysis of the deposited data

How the results depend on the processing

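The alternatives changed the pseudocount (0.1 or 1), the filter (none, or a mean of 1 FPKM), the scaling (median ratio), the genes (mitochondrially encoded ones left out), the measure (voom on recovered fragments), the block (replicate number) and the libraries (each left out in turn, or those of the study's quality table). Lcn2 kept its direction in 14 of 14 alternatives for CON eWAT against liver (1.84 to 3.72) and 14 of 14 against muscle (2.75 to 4.42), and its direction and side of the threshold in 15 of 15 for diet in liver (0.26 to 0.78) and 19 of 19 for liver against muscle diet effects. In fat, its log2 fold change ran from 0.24 without HS3W to 3.03. Lcn8 in liver ran from −0.43 to 0.067 with 1 library left out, reversed at 0.067 without HS5L, and was 0.21 with the quality-table libraries. In all of these the cause was not tested. Leaving out 1 library gave 0 to 160 called genes in fat, 0 to 1 in liver, 10 to 61 in muscle and 0 to 28 for the liver and muscle difference. The count in fat was 1 without CON72W and 160 without HS3W. The muscle count of 35 was 7 with no filter, 58 with mitochondrially encoded genes left out, 72 with voom and 54 with the replicate block. The liver count of 0 was 1 with mitochondrially encoded genes left out and 35 with the quality-table libraries, 20 higher and 15 lower. The liver and muscle difference, 3 genes, was 0 with voom and 2 with the block. CON eWAT against liver gave 5132 with median-ratio scaling and 5639 with mitochondrially encoded genes left out, in place of 8869. Blocking ended the call of Lrp2 in CON eWAT against liver (1.45, adjusted p = 0.0643, limma) and changed no other call of a single gene given here; same-numbered libraries of fat correlated at −0.197 to 0.414 and those of liver at −0.473 to 0.395, so there the numbers do not pair libraries. In CON eWAT against liver, replicate numbers 1 and 2 carry different codes while the codes CON16 and CON72 are in both tissues. The code, read as that of a mouse, was therefore taken as the block, an alternative added after seeing the data. With it, 8801 genes were called in place of 8869. Reading 0 as 3 fragments, also added after seeing the data, left 103 of the 343 genes over 100 times higher in HS3W. Depth limits the 9 secretory genes outside HS3W, which rest on few fragments.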
